A study of Homo sapiens with 6 samples.

Results

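The genes described here place, remove or read acetyl groups on the lysines of histones, and they were compared between Jurkat cells kept in suspension and Jurkat cells embedded in collagen. They come from a list of 35 gene names, each read from its brightest probe set on the 6 arrays. Of the 35, 34 were measured (9 writers, 17 erasers and 8 readers) among 17687 genes in all; EP300, a paralogue of CREBBP, was not analysed here, as no probe set was paired with its name. Jurkat is an established human line from an acute lymphoblastic leukaemia of T cells (T-ALL). Cells of 3 arrays, the control group, were cultured in suspension for 3 h. Cells of the other 3 arrays, called 3D, were mixed into a bovine type I collagen solution of 1.7 mg/mL. That gel was left to set for 1 h and was then held under warm medium for 2 h, so both groups spent 3 h in culture. All 6 samples were Jurkat cells in RPMI with serum, and the labels call the 3 samples of a group biological replicates but do not say what sets them apart. Any p-value here therefore measures the spread between these samples, which may be technical, and a single line limits what the groups stand for.

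Acetylation neutralises the positive charge of histone lysines, and acetylated chromatin is in general more open and more transcribed. Writers (histone acetyltransferases, KATs) take the acetyl group from acetyl-CoA. Erasers are either zinc-dependent deacetylases (HDACs) or NAD-dependent sirtuins. Readers bind acetyl-lysine through a bromodomain and bring transcription or remodelling complexes with them. In T cells and in T-ALL these proteins are widely expressed and several, including HDACs and BET readers, are drug targets.

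Levels are log2 values as deposited, a scale on which 1 unit is a 2-fold difference. Array medians lay between 5.55 and 5.64, and arrays correlated at 0.971 to 0.991 over all genes. On the first principal component, which carried 42.8% of the variance, suspension replicate 1 (score -40.4) stood apart from suspension replicates 2 and 3 (4.90 and 5.85). The 3D arrays were spread as well, with scores of -14.2, 14.7 and 29.2 for replicates 1, 2 and 3. The 13 T cell markers fixed for the check of the label were all measured, with means of 6.45 to 11.7. Of 31 measured markers of other cell types, 25 had a mean under 6, as did 9345 of all 17687 genes. The highest of the 31 was the B cell marker CD79A, named here after its values were seen. Its mean of 8.28 lay above those of some T cell markers, such as BCL11B (6.45). Of the 13 T cell markers 9 were lower in 3D, where 9311 of all 17687 genes were lower. Their median difference was -0.21, and 0 passed the test (limma, adjusted p). Only 1, CD247, which was lower, had an unadjusted p under 0.05. The groups did not overlap for CD3D, CD247 and CD5, each lower in 3D, where 8.03% of all genes were lower without overlap. The average level over the 13 ran from 9.16 to 9.30 on the suspension arrays and from 8.94 to 9.26 on the 3D arrays, and its part in the differences below was not tested. The values are relative to all RNA on an array, which pools many cells. They do not show whether a transcript fell in all cells or in some of them.

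The comparison asked which histone acetylation genes differ after 3 h in collagen. No member passed the test: limma with Benjamini-Hochberg adjustment over all 17687 genes gave adjusted p-values of 0.457 to 0.986, and it called 0 genes in all, a background of 0%. The test without moderation also called 0. Differences were small, with a median of -0.057 over the 34 members against -0.016 over all genes, and a median size of 0.19 against 0.17. The members' median turned sign to 0.013 over the 29 with a mean of 6 or more and to 0.0099 without 3D replicate 3. None reached 2-fold, and the largest in size was that of KAT2B, at 0.55. There were 15 members higher and 19 lower in 3D, where of all 17687 genes 8376 were higher and 9311 lower. At an unadjusted p under 0.05 stood 2 members, the reader BRD8 on the higher side and the deacetylase SIRT2 on the lower side. That is 1 of 34 in each direction, where all genes gave 5.9% higher and 3.97% lower (9.87% in all). Without suspension replicate 2 or without 3D replicate 3 the 2 became 1, and without 3D replicate 1 they became 4. The groups did not overlap for 6 members, or 17.6%, near the 16.3% of all genes. These were BRD8 and KAT6A, higher in 3D (5.88%, against 8.28% of all genes), and SIRT6, KAT5, KAT8 and SIRT3, lower (11.8%, against 8.03%). Within all 3 replicate numbers 9 members were higher in 3D (26.5%, against 20.3% of all genes) and 12 were lower (35.3%, against 19.8%). The latter count includes BRD3, whose arrays numbered 2 were nearly equal, and KAT5, at -0.010 in number 2. It also includes HDAC1 (-0.0087), HDAC8 (-0.017) and HDAC7 (-0.027), values that are for number 1. The higher count includes BRD1, at 0.019 in number 3.

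**Figure D1:**
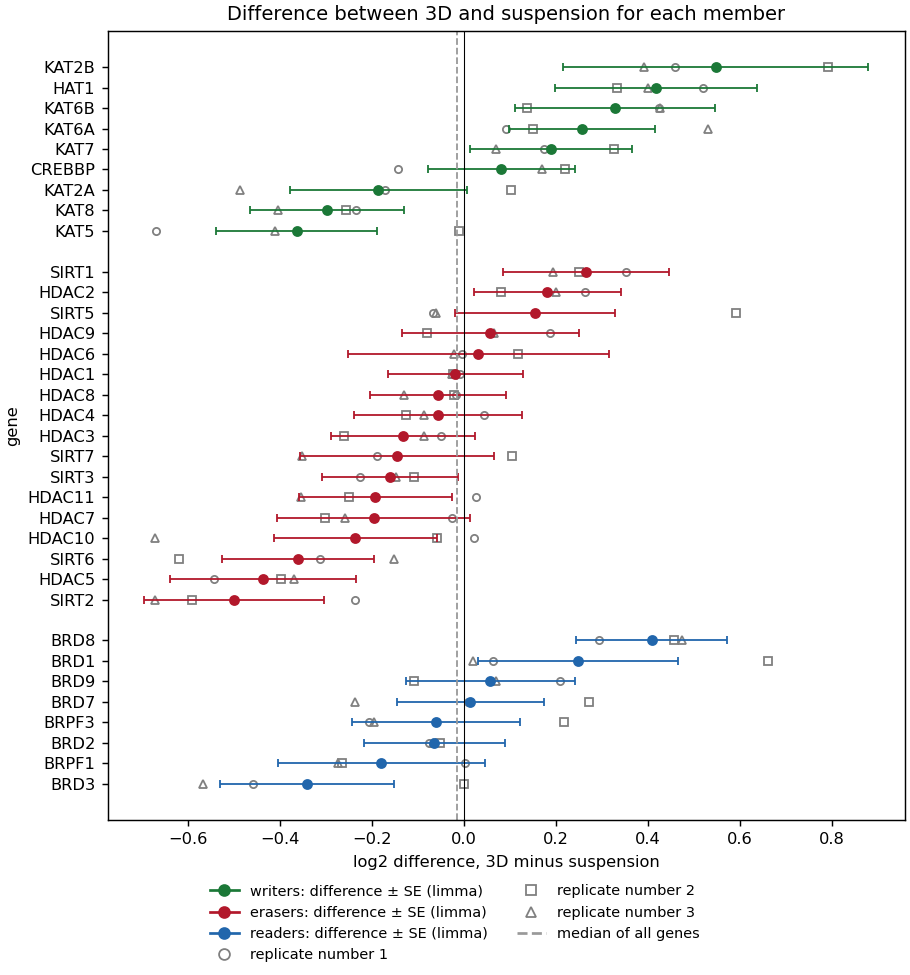
Log2 difference (3D minus suspension) of each of the 34 measured members, grouped as writers, erasers and readers. Filled points with bars are the difference ± SE from limma over 3 arrays per group, open symbols are the differences within replicate numbers 1, 2 and 3, and the dashed line is the median of all genes (-0.016). KAT2B, HAT1 and BRD8 lie farthest to the right and SIRT2, HDAC5, KAT5 and SIRT6 farthest to the left.

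The replicate numbers of the titles were taken to pair the arrays, on the basis given with the processing. That basis does not settle numbers 2 and 3, so the blocked fits rest on an assumed pairing. With the replicate number as a block 0 of 34 members passed (adjusted p 0.118 to 0.977, limma), where 16 of all genes did (0.0905%). At an unadjusted p under 0.05 the block gave 8 members, 4 higher and 4 lower, or 23.5%, against 17.4% of all genes (10% higher and 7.36% lower). When the blocked fit was limited to genes with a mean of 6 or more, 5 of 29 members passed, or 17.2%, near the 14.4% of all 8342 genes tested there. The 3 that rose in that fit were KAT2B (adjusted p 0.0109), HAT1 (0.0390) and BRD8 (0.0435), or 10.3% of members against 10.6% of all genes. The 2 that fell were SIRT2 (0.0178) and HDAC5 (0.0313), or 6.9% against 3.78%. The count was 2 without pair 1 (KAT2B and SIRT2), 5 without pair 2 and 1 without pair 3 (KAT2B). The 5 without pair 2 were HAT1, HDAC5 and SIRT2 with BRD3 and KAT5, both lower.

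Promoters of the members with the smallest p in each direction are shown because SIRT2 and SIRT6 were the lowest-p members on the lower side and BRD8 and HAT1 on the other. Each is the 250 bases before the annotated start in the RefSeq table of GRCh38.p14, read 5′ to 3′ along the gene. SIRT2 is at chr19:38899619-38899868 (minus strand), SIRT6 at chr19:4182564-4182813 (minus strand), BRD8 at chr5:138178631-138178880 (minus strand) and HAT1 at chr2:171922211-171922460 (plus strand). Capitals mark matches, on either strand, to 7 searched motifs: the SP/KLF box with letters GGGCGG, the NFY box with letters CCAAT, the ETS site with letters CCGGAAG, the NRF1 motif, the E-box with letters CACGTG, the CRE with letters TGACGTCA, and the TATA box with letters TATAAA. Adjacent matches can overlap, as in SIRT6.
SIRT2: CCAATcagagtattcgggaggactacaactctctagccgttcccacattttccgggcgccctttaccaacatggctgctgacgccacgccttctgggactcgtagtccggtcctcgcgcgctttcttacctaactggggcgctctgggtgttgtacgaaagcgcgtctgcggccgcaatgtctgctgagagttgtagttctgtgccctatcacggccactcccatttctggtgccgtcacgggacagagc
SIRT6: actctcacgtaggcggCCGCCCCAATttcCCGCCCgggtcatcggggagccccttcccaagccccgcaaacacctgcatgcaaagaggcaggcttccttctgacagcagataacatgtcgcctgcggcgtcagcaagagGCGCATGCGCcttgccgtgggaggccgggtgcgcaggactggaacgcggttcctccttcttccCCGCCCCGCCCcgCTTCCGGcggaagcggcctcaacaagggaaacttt
BRD8: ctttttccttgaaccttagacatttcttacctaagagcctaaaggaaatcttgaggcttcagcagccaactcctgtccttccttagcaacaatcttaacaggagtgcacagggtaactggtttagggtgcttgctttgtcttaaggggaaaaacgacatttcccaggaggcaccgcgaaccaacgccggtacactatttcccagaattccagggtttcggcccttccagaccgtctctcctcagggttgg
HAT1: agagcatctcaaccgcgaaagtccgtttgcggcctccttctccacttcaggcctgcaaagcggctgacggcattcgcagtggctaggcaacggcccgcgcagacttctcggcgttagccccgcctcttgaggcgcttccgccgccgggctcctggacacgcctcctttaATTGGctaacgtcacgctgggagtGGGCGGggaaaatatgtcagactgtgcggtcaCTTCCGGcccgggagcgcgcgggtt
The SIRT2 window held 1 match, to the NFY box, and the SIRT6 window 7, of which 4 were SP/KLF boxes. The HAT1 window held 3, and the BRD8 window held none of these letters. BRD8 also had the lowest CpG count of these windows, 7, where the others had 20, 23 and 27. Promoter sequences were matched for 30 of the 34 members and for 14250 measured genes. The SP/KLF box occurred in 60% of member windows and 57.0% of all, the NFY box in 23.3% and 34.6%, and the ETS site in 20% and 11.9%. The NRF1 motif occurred in 10% of member windows and 7.9% of all, and the E-box in 6.67% and 7.7%. The CRE and the TATA box were in 0 of 30 member windows and in 2.34% and 8.99% of all. Member windows had a median GC content of 69.6% against 62.4% for all measured genes. Members higher and lower in 3D did not separate by it, with medians of 69.4% (14 windows) and 69.6% (16 windows).

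Of the 9 writers 6 were higher in 3D, where 8376 of all 17687 genes were higher. Their median difference was 0.19, against -0.016 over all genes. The median was positive within each replicate number (0.090, 0.15 and 0.17, against -0.039, 0.054 and -0.035 over all genes). It stayed between 0.12 and 0.19 when any single array was left out. With the arrays' trend on gene span and gene density removed, a measure described below, it was 0.18. Of the 9 writers 0 passed the test.

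KAT2B, also known as PCAF, is a GCN5-family acetyltransferase of H3K9 and a subunit of coactivator complexes. Suspension arrays numbered 1 to 3 measured 6.44, 7.28 and 7.52, and 3D arrays in that order 6.90, 8.07 and 7.91. Both replicates numbered 1 were low, so the groups overlapped, while each 3D array lay above the suspension array of its number. The means were 7.08 ± 0.56 (SD, n = 3) and 7.63 ± 0.63 (SD, n = 3), a difference of 0.55 ± 0.33 (SE), or 1.46-fold. Its adjusted p (limma) was 0.597 unblocked and 0.118 blocked, and with the block its SE was 0.15. Within numbers 1, 2 and 3 the differences were 0.46, 0.79 and 0.39. Leaving out a single array breaks a pair: the group difference fell to 0.23 without suspension replicate 1 and reached 0.91 without 3D replicate 1. KAT2A, the paralogue GCN5, had a difference of the opposite sign, -0.19 ± 0.19 (SE), and differed in sign between replicate numbers (-0.17, 0.10 and -0.49); without 3D replicate 3 it was -0.024.

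HAT1, the type B enzyme, acetylates newly made histone H4 in the cytoplasm before it is laid into chromatin. Its values were 10.26, 10.72 and 10.98 in suspension and 10.78, 11.06 and 11.38 in 3D. All numbers showed a higher value in 3D, by 0.52, 0.33 and 0.40, but replicate 1 in 3D fell inside the suspension range. The difference was 0.42 ± 0.22 (SE), or 1.34-fold, with an adjusted p of 0.554 (limma), and 0.22 without suspension replicate 1.

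The 5 MYST-family writers divided by sign. KAT6A (MOZ) and KAT6B (MORF) acetylate H3K23 among other sites, within complexes held together by BRPF scaffolds. KAT6A measured 8.32, 8.29 and 8.17 in suspension and 8.41, 8.44 and 8.70 in 3D, a difference of 0.26 ± 0.16 (SE; adjusted p 0.604, limma). The groups did not overlap, and the highest 3D array, replicate 3, gave the largest step (0.53, against 0.090 and 0.15 for numbers 1 and 2). KAT6B had 7.26, 7.97 and 7.77 against 7.68, 8.10 and 8.19, with overlap. Its difference was 0.33 ± 0.22 (SE), falling to 0.13 without suspension replicate 1 and reaching 0.48 without 3D replicate 1. KAT7 (HBO1), which acetylates H3K14 and also works with BRPF or JADE scaffolds, stood at 0.19 ± 0.18 (SE) and was higher in 3D in each number, though it was 0.087 without 3D replicate 1.

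KAT5 and KAT8 made up the lower side of the family. KAT5 is TIP60, the acetyltransferase of the NuA4/TIP60 complex that acts on H4 and H2A and in DNA repair. It measured 7.10, 6.95 and 7.15 in suspension and 6.43, 6.94 and 6.73 in 3D. The groups did not overlap, but suspension replicate 2 and 3D replicate 2 differed by only -0.010, so nearly all of the gap came from numbers 1 and 3. The difference was -0.36 ± 0.18 (SE; adjusted p 0.519, limma). KAT8 (MOF), the main enzyme of H4K16 acetylation, had 6.84, 6.98 and 6.73 in suspension against 6.60, 6.72 and 6.33 in 3D. It was lower in every number, without overlap, by 0.30 ± 0.17 (SE) in the means (6.85 to 6.55; adjusted p 0.569, limma). CREBBP, which with EP300 acetylates H3K27 at enhancers, measured 8.76, 8.76 and 8.73 in suspension and 8.62, 8.97 and 8.90 in 3D. Its difference was 0.081 ± 0.16 (SE), with a 95% interval of -0.27 to 0.43.

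**Figure D2:**
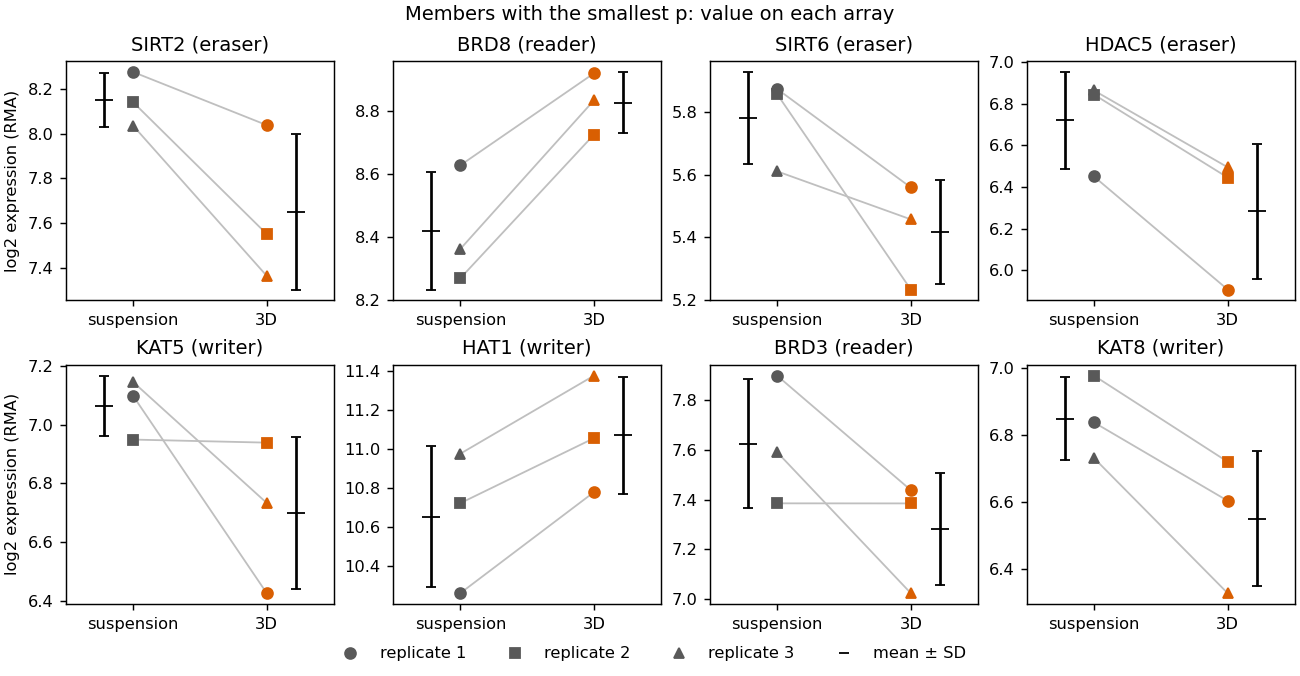
Log2 expression (RMA) on each of the 6 arrays for the 8 members with the smallest unadjusted p; grey symbols are suspension, orange symbols 3D, lines join the same replicate number, and black bars are mean ± SD (n = 3 per group). The vertical axis of each panel has its own range, and only BRD8, SIRT6, KAT5 and KAT8 show groups that do not overlap.

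Of the 17 erasers 12 were lower in 3D, where 9311 of all 17687 genes were lower. Their median difference was -0.13, against -0.016 over all genes. The median was negative within each replicate number (-0.017, -0.081 and -0.13) and ran from -0.14 to -0.061 when any single array was left out. All genes had medians of -0.039, 0.054 and -0.035 in numbers 1, 2 and 3, so in number 1 the erasers lay above all genes. The erasers' median was -0.097 with the trend on span and gene density removed, and -0.057 over the 13 erasers with a mean of 6 or more. Of the 17 erasers 0 passed the test.

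Among the 6 sirtuins 4 were lower and 2 higher. SIRT2, a mainly cytoplasmic enzyme that deacetylates tubulin and, in mitosis, H4K16, measured 8.28, 8.14 and 8.04 in suspension and 8.04, 7.55 and 7.36 in 3D. The 3D arrays numbered 2 and 3 were below all suspension arrays, and 3D replicate 1 (8.038) lay just inside the suspension range, whose lowest value was 8.036. The means were 8.15 ± 0.12 (SD, n = 3) and 7.65 ± 0.35 (SD, n = 3). The difference was -0.50 ± 0.20 (SE), or 1.42-fold lower, the smallest p among members (unadjusted 0.0266, adjusted 0.457, limma). Only 1.5% of all genes had a lower difference. Without 3D replicate 3 it was -0.36 and without 3D replicate 1 it was -0.69.

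SIRT6, a nuclear deacetylase of H3K9 and H3K56 with roles in DNA repair, measured 5.87, 5.86 and 5.61 in suspension and 5.56, 5.23 and 5.46 in 3D. The groups did not overlap, though the gap between the lowest suspension array and the highest 3D array was small. The difference was -0.36 ± 0.17 (SE; adjusted p 0.511, limma), and the gene's mean lay under 6, so the filter on dim probe sets removed it. SIRT1, the nuclear founder of the family, had 8.70, 8.47 and 8.90 in suspension against 9.05, 8.72 and 9.10 in 3D. It was higher in each number, with overlap, at 0.26 ± 0.18 (SE), and 0.15 without suspension replicate 2. SIRT3, the main mitochondrial deacetylase, held a narrow spread: 7.25, 7.14 and 7.24 against 7.03, 7.03 and 7.10, without overlap, a difference of only -0.16 ± 0.15 (SE). SIRT5, which removes succinyl and malonyl groups in mitochondria, was higher by 0.59 in number 2, while its differences in numbers 1 and 3 were -0.068 and -0.062, and its group difference of 0.15 fell to 0.041 without suspension replicate 2. SIRT7, a nucleolar enzyme, also had a mean under 6. It stood at -0.15 ± 0.21 (SE), with number 2 again of opposite sign (0.10), and at -0.0077 without 3D replicate 1.

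The class I deacetylases had differences of 0.18 or less in size. Of these HDAC1, HDAC2 and HDAC3 are catalytic subunits of large nuclear corepressor complexes. HDAC1 measured 10.07, 10.04 and 10.03 in suspension and 10.07, 10.01 and 10.00 in 3D. All 6 arrays lay within a span narrower than that of any other member, and the difference was -0.020 ± 0.15 (SE), with a 95% interval of -0.34 to 0.30. The SE of limma is far wider than the spread of HDAC1 itself because it borrows spread from all genes. HDAC2, its close paralogue, was higher in 3D in each number and stood at 0.18 ± 0.16 (SE), with values of 9.95, 10.01 and 10.18 against 10.21, 10.09 and 10.38. HDAC3, the enzyme of another corepressor complex, had -0.13 ± 0.16 (SE), and -0.061 without suspension replicate 2. HDAC8, which acts on cohesin, had -0.057 ± 0.15 (SE).

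Class IIa deacetylases shuttle between cytoplasm and nucleus and restrain MEF2 factors, mostly as platforms for HDAC3. HDAC5 measured 6.45, 6.84 and 6.86 in suspension and 5.91, 6.45 and 6.50 in 3D. Replicate 1 was the lowest array of both groups, so the groups overlapped, while the differences within numbers were of similar size (-0.54, -0.40 and -0.37). The difference was -0.44 ± 0.20 (SE), or 1.35-fold lower, and limma gave adjusted p-values of 0.514 unblocked and 0.168 blocked. It was -0.25 without 3D replicate 1. HDAC7, a class IIa enzyme prominent in thymocytes, had 6.85, 6.43 and 6.53 against 6.83, 6.13 and 6.27. Its difference of -0.20 ± 0.21 (SE) came from numbers 2 and 3, and it ran from -0.41 without 3D replicate 1 to -0.058 without 3D replicate 2. HDAC4 and HDAC9 stood at -0.057 ± 0.18 and 0.057 ± 0.19 (SE), with signs that differed between numbers.

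HDAC6, the class IIb tubulin deacetylase, varied more with replicate number than with culture and measured 6.95, 7.77 and 7.75 in suspension and 6.94, 7.89 and 7.73 in 3D. Both arrays numbered 1 were low by a similar amount, and the group difference was 0.030 ± 0.28 (SE), with a 95% interval of -0.60 to 0.66. The differences within numbers 1, 2 and 3 were -0.0053, 0.12 and -0.021, and with the block the SE was 0.15. Over all members the range of the means of numbers 1 to 3 was larger than the group difference for 26 of 34, or 76.5%, against 72.6% of all genes. HDAC10, a class IIb polyamine deacetylase, had -0.24 ± 0.18 (SE), mostly from number 3 (-0.67, against 0.022 and -0.059), and -0.13 without suspension replicate 3. HDAC11, the class IV enzyme, had -0.19 ± 0.17 (SE), and -0.11 without suspension replicate 2. The means of HDAC10 and HDAC11 were under 6.

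Readers were evenly divided, 4 higher and 4 lower, with a median difference of -0.024 that ran from -0.063 to 0.063 with single arrays left out. BRD8, a bromodomain subunit of the NuA4/TIP60 acetyltransferase complex, measured 8.63, 8.27 and 8.36 in suspension and 8.92, 8.72 and 8.83 in 3D. Every 3D array lay above every suspension array, and each number gave a higher value in 3D (0.29, 0.46 and 0.47). The means were 8.42 ± 0.19 (SD, n = 3) and 8.83 ± 0.10 (SD, n = 3), a difference of 0.41 ± 0.16 (SE), or 1.33-fold. The unadjusted p was 0.0304 and the adjusted p 0.476 (limma). KAT5, the enzyme of the same complex, was lower in 3D by 0.36, as given above.

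The BET readers BRD2 and BRD3, which recruit transcription elongation factors to acetylated H3 and H4, were both lower. BRD3 measured 7.90, 7.39 and 7.59 in suspension and 7.44, 7.38 and 7.02 in 3D. The groups overlapped: arrays numbered 2 were nearly equal, and the lower values came from numbers 1 and 3 (-0.46 and -0.57). The difference was -0.34 ± 0.19 (SE; adjusted p 0.563, limma), and -0.21 without suspension replicate 1. BRD2 had 9.78, 9.62 and 9.60 against 9.70, 9.57 and 9.53, a small and even step of -0.065 ± 0.15 (SE).

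BRD1, BRPF1 and BRPF3 are the scaffolds that hold MYST writers on chromatin, and they shared no direction. BRD1 measured 8.43, 7.70 and 7.96 in suspension and 8.50, 8.36 and 7.98 in 3D, a difference of 0.25 ± 0.22 (SE) that came almost wholly from number 2 (0.66); without suspension replicate 2 it was 0.080 and without suspension replicate 1 it was 0.45. BRPF1 stood at -0.18 ± 0.22 (SE) and BRPF3, with a mean under 6, at -0.062 ± 0.18 (SE). BRD7 and BRD9, subunits of SWI/SNF remodelling complexes, had 0.013 ± 0.16 and 0.056 ± 0.18 (SE). For BRD7 the 95% interval was -0.34 to 0.37.

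Across the members, genes with higher values in 3D tended to be long and in gene-poor surroundings, and those with lower values short and in gene-dense ones, as over the array as a whole. Gene span is the length of the annotated gene, and density the number of protein-coding genes whose centre lies within 500 kb of its own centre. Over 34 members, which share the same 6 arrays, Spearman's rho of the difference was 0.61 for span and -0.53 for density. Over all genes these were 0.25 and -0.30, and span and density were themselves correlated at -0.74 among members. Of the 17 members with a span at or above their median of 38.2 kb 11 were higher in 3D, and of the 17 shorter ones 13 were lower. The median differences of these members were 0.081 and -0.16, where all genes on the same sides of 38.2 kb had 0.056 and -0.061. The longest members differed little: HDAC9 (916 kb, 0 neighbours) by 0.057, HDAC4 (353 kb, 1 neighbour) by -0.057 and HDAC8 (243 kb, 13 neighbours) by -0.057. HDAC5 (46.9 kb, 26 neighbours) was among the longer members and stood at -0.44.

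KAT2B (114 kb, 4 neighbours) and HAT1 (61.2 kb, 7 neighbours) lay on one side. On the other lay SIRT6 (8.46 kb, 32 neighbours), KAT5 (7.59 kb, 39 neighbours), KAT8 (13.7 kb, 38 neighbours) and SIRT2 (21.1 kb, 31 neighbours). BRD8 (38.9 kb, 17 neighbours) stood near the middle on both measures. BRD3 (38.2 kb, 8 neighbours) was low in 3D in a region of few genes. With each array's linear trend on span and density removed, the differences were -0.42 for SIRT2, 0.40 for BRD8, 0.46 for KAT2B, 0.36 for HAT1 and -0.40 for HDAC5. KAT5, SIRT6 and KAT8 shrank the most of those just named, to -0.23, -0.26 and -0.18. Of the members 0 passed after this step (limma, adjusted p), and 2 had an unadjusted p under 0.05, or 5.88%, against 8.65% of all genes (BRD8 higher and SIRT2 lower, where all genes gave 5.11% and 3.54%). In the blocked fit over genes with a mean of 6 or more, the step left KAT2B (adjusted p 0.0308, limma) and SIRT2 (0.0459) past the threshold of the 5.

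**Figure D3:**
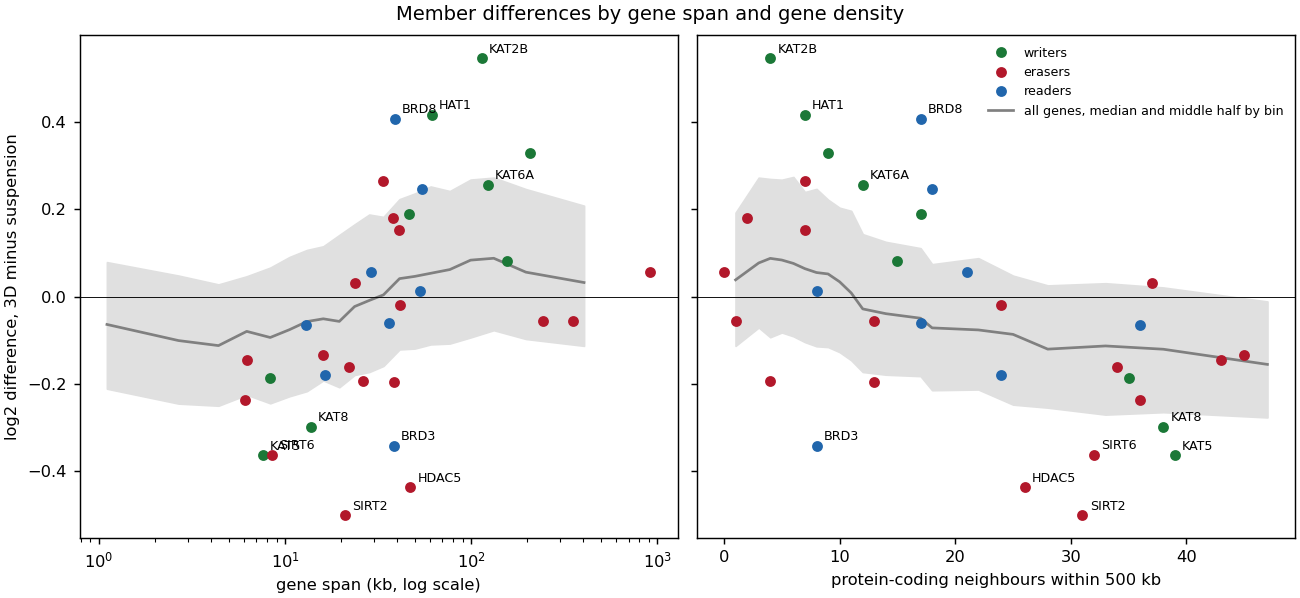
Log2 difference (3D minus suspension) of the 34 members against gene span in kb (left, log axis) and against the number of protein-coding neighbours within 500 kb (right), coloured by role. The grey line and band are the median and interquartile range of all genes in bins of the horizontal axis. KAT2B, HAT1 and BRD8 lie above the band in both panels, and SIRT2, HDAC5, BRD3, KAT5, SIRT6 and KAT8 lie below it.

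Genes that work with the members were compared from lists of complex subunits, other readers and suppliers of the cofactors, 97 genes of which 92 were measured. The lists were chosen with earlier results of these data known, so their shares and medians are descriptions. Of the 92, 0 passed the test (limma adjusted p 0.380 to 0.992), and 12 had an unadjusted p under 0.05, 9 higher and 3 lower, or 13% against 9.87% of all genes. The median difference was 0.057, with 54 higher and 38 lower, where of all 17687 genes 8376 were higher and 9311 lower. With the block none passed, and 24 had an unadjusted p under 0.05 (26.1%, against 17.4%). In the blocked fit over genes with a mean of 6 or more 12 of 83 passed, or 14.5%, against 14.4%.

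Other acetyl-lysine readers, a list of proteins with bromodomains or other reader domains outside the member list, had the highest median of the 7 lists. It was 0.26 over 20 genes, with 14 higher and 6 lower, and it was positive in each replicate number (0.37, 0.24 and 0.24). At an unadjusted p under 0.05 stood 5, all higher (25%, against 5.9% of all genes higher). These 5 were also the ones without overlap of the groups (25%, against 8.28% of all genes higher without overlap). As this list was chosen with earlier results of these data known, these shares describe it and test nothing. BRWD1, a bromodomain and WD-repeat protein, measured 6.83, 6.59 and 6.85 in suspension and 7.77, 7.35 and 7.23 in 3D. All 3D arrays lay above all suspension arrays, and the difference was 0.69 ± 0.18 (SE), or 1.61-fold (adjusted p 0.380, limma). Its paralogue BRWD3, with a mean under 6, stood at 0.74 ± 0.27 (SE), from 0.39 without suspension replicate 1 to 0.94 without suspension replicate 3. ATAD2B, an AAA-ATPase with a bromodomain, stood at 0.56 ± 0.18 (SE). TRIM33, which reads H3K9 methylation together with H3K18 acetylation, had 0.42 ± 0.16 (SE), and TRIM24, picked here after its values were seen, had 0.63 ± 0.23 (SE). These readers were long genes, with a median span of 133 kb against 25.9 kb of all genes, and with the trend on span and density removed their median was 0.21.

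Subunit lists of the acetyltransferase complexes had small positive medians, and only that of NuA4/TIP60 kept its sign with single arrays left out. In NuA4/TIP60, the complex of KAT5 and BRD8, 9 of 13 subunits were higher, with a median of 0.14 that ran from 0.044 without suspension replicate 2 to 0.21 without suspension replicate 1. At an unadjusted p under 0.05 stood 2, both higher (15.4%, against 5.9% of all genes). EPC2, a scaffold subunit, measured 7.365, 7.230 and 7.679 in suspension and 7.996, 7.932 and 8.137 in 3D, without overlap, a difference of 0.60 ± 0.17 (SE; adjusted p 0.380, limma). ING3, its H3K4me3-binding subunit, had 0.47 ± 0.20 (SE), and 0.29 without suspension replicate 1. Among 16 subunits of SAGA and ATAC, the complexes of KAT2A and KAT2B, the median was 0.056, and it turned sign with single arrays left out, from -0.077 without 3D replicate 1 to 0.17 without 3D replicate 2. At an unadjusted p under 0.05 stood 1 higher and 2 lower (18.8%, against 9.87% of all genes). TADA3, an adaptor that activates the enzyme, was lower without overlap, with 8.65, 8.85 and 8.73 against 8.55, 8.24 and 7.98. Its difference was -0.48 ± 0.18 (SE). SGF29, which binds methylated H3K4, was lower without overlap at -0.35 ± 0.16 (SE). SUPT20H, a core SAGA subunit, had 0.35 ± 0.15 (SE). MYST complex subunits (11 genes) had 0 at an unadjusted p under 0.05, and their median of 0.057 turned sign with single arrays left out (-0.053 without suspension replicate 3 to 0.11 without suspension replicate 1).

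Corepressor subunits that carry HDAC1 and HDAC2 had a median of -0.013 over 21 genes, with 1 higher and 1 lower at an unadjusted p under 0.05 (9.52%, against 9.87% of all genes). That median ran from -0.061 without suspension replicate 2 to 0.052 without 3D replicate 2. ARID4B, a subunit of SIN3 complexes, measured 6.91, 6.97 and 7.00 in suspension and 7.60, 7.15 and 7.77 in 3D, without overlap (0.54 ± 0.18 SE). ING1, a SIN3 subunit that binds H3K4me3, was lower without overlap at -0.53 ± 0.19 (SE). The 3 measured subunits of the HDAC3 corepressor complex had a median of 0.16, which was 0.049 without 3D replicate 2 and 0.25 without 3D replicate 1. Of these TBL1XR1 stood at 0.31 ± 0.19 (SE), and at 0.17 without suspension replicate 1. Genes that supply acetyl-CoA and NAD had a median of 0.0048 over 8 genes, from -0.089 without suspension replicate 2 to 0.10 without 3D replicate 3, and 0 at an unadjusted p under 0.05. Of these, SLC25A1, the mitochondrial citrate carrier, had -0.34 ± 0.19 (SE), ACLY, which splits citrate into acetyl-CoA, -0.24 ± 0.16 (SE), and NMNAT1, a nuclear NAD synthase, 0.27 ± 0.19 (SE).

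**Figure D4:**
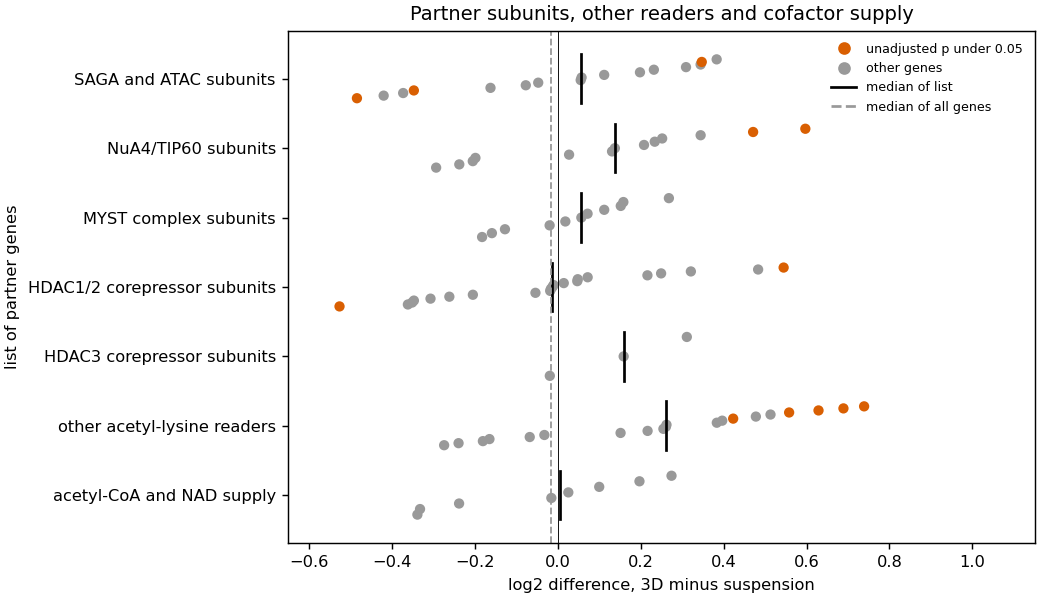
Log2 difference (3D minus suspension) of 92 partner genes in 7 lists; each point is a gene, orange points have an unadjusted limma p under 0.05, short black lines are list medians and the dashed line is the median of all genes. Points of a list are spread vertically in order of their value only for legibility. The list of other acetyl-lysine readers has its median at 0.26 and 5 orange points, all to the right.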

How the data were processed

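RNA of 6 Jurkat cultures, 3 in suspension and 3 in 3D, was prepared with the GeneChip WT PLUS kit, per the labels' protocols. The authors deposited log2 values for each probe set, made with RMA and the Transcriptome Analysis Console per the submitters' processing notes. Tool versions, probe annotation and build are not given in the sources used here. By its construction RMA brings all arrays to a common distribution, so a change shared by all genes cannot be seen, and it compresses low signals. The number of arrays limits the precision.

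The platform table gave 1 symbol for 17709 of 21448 probe sets, several for 0 and none for 3739. Gene identifiers of all 17709 were found in RefSeq GRCh38.p14. For 20 genes with over 1 probe set, 0 of them members, the brightest was kept. Groups were compared with limma 3.58.1 under R 4.3.3 (lmFit, eBayes, two-sided, no block and no filter; 4 residual plus 6.79 prior degrees of freedom). Benjamini-Hochberg adjustment ran over all genes, with a threshold of 0.05. The code was tested on simulated data. The members, lists, motifs and alternatives were chosen with earlier results of these data known. Any member could be named, and of each partner list up to 4 genes of smallest p. Alternatives were the replicate block, a mean of at least 6, quantile normalization, removal of the span and density trend, array weights, other settings of limma's prior, and leaving out arrays or pairs.

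Titles gave groups and replicate numbers. With group means subtracted, same-numbered arrays correlated at 0.521, 0.120 and 0.337. All exceeded 0.1, and the numbers were taken to pair the arrays, as an assumption. Suspension 2 with 3D 3 (0.230) and suspension 3 with 3D 2 (0.149) exceeded it too. Both were above the 0.120 of suspension 2 with 3D 2, so this check does not settle numbers 2 and 3. Deviations within a group are also not independent, as its mean was subtracted. The fit without the block stayed the main test, as the labels do not say what a number marks. Blocked fits had 2 residual degrees of freedom, plus 9.78 prior ones, or 25.0 over genes with a mean of 6 or more. Plots used matplotlib 3.10.9.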

Additional observations from a re-analysis of the deposited data

How the results depend on the processing

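With single arrays left out, 0 genes, members or partner genes passed (limma). Medians then ran from -0.064 to 0.0099 over members, 0.12 to 0.19 over writers, -0.14 to -0.061 over erasers and -0.063 to 0.063 over readers; the erasers' was -0.076 without 3D replicate 3, and the writers' 0.13 without suspension replicate 1. The replicate block called 16 genes, and 21, 150 and 36 without pairs 1, 2 and 3, with 0 members and 0 partner genes each time; without pairs 2 and 3 the medians were 0.12 for writers in both and -0.074 and -0.041 for erasers. The block with a mean of 6 or more called 1199 genes, 5 members and 12 partner genes. Leaving out pairs 1, 2 and 3 there, a choice made after the data were seen, gave 458, 1457 and 406 genes, 2, 5 and 1 members and 4, 16 and 4 partner genes. Medians with that filter, blocked or not, were 0.013 over members and -0.057 over erasers. Blocked and without pair 2 or 3 they were 0.12 over writers, and -0.065 and -0.020 over erasers, and 0.037 over members without pair 3. With the span and density trend removed as well, also chosen later, 834 genes, 2 members and 9 partner genes passed, with medians of 0.016 over members and -0.071 over erasers. Quantile normalization gave 0.14 over writers, and array weights -0.0077 over members and -0.071 over erasers. Of 34 members 22 kept their sign in each alternative that held them (23 at most). The other reversals, all of uncalled genes, were as follows. Quantile normalization gave HDAC6 -0.011, BRD7 -0.037 and BRD9 -0.0020. Trend removal gave HDAC1 0.0087, HDAC3 0.016, HDAC9 -0.097, SIRT7 0.015, BRD2 0.046, BRD7 -0.040 and, of partners, GPS2 0.21. Array weights gave HDAC4 0.016 and BRPF3 0.060. With single arrays left out, HDAC6 ran from -0.24 to 0.32, BRD9 from -0.026 to 0.22, BRD7 from -0.069 to 0.096, HDAC9 from -0.11 to 0.18, HDAC4 from -0.17 to 0.074, BRPF1 from -0.37 to 0.028, BRPF3 from -0.22 to 0.070 and GPS2 from -0.11 to 0.068. With a pair left out under the block, HDAC9 reached -0.0075, BRD9 -0.020, HDAC6 -0.013, SIRT5 -0.065, BRD7 -0.12, GPS2 0.056 and BRPF3 0.011 and 0.0051. The cause was not tested. No detection calls were used, so a low value does not show whether a gene is expressed.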
